A study of Mus musculus with 7 samples.

Results

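Liph, Lpar6, Hr, Sgk3, Plcd1, Adam17, Rhbdf2 and Padi3 are linked to the texture or growth of hair. These genes were followed in skin of mice with and without a knockout of Tuft1, the gene of tuftelin 1. They were taken by gene name as 8 of the 56691 genes in the count table, and they lie outside the desmosome and keratin families. The material was skin of 3 Tuft1 knockout mice (mice 2, 3 and 4), taken where it looked healthy, and of 4 wild types (mice 5, 6, 7 and 8), here called controls, with 1 library from each animal. The strain, age, body site, hair cycle stage and deleted part of Tuft1 are not given in the sources used here. Reads came from the 3' ends of polyadenylated transcripts, so the level of a gene is a number of 3' tags that does not grow with transcript length. It is given as CPM, the count scaled to a common library size with TMM (trimmed mean of M values) factors. The comparison asked whether genes of inherited woolly, wavy or sparse hair differ in Tuft1 knockout skin. Loss of tuftelin 1, per the study's title, gives woolly hair.

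The 8 genes belong to several routes that shape the hair follicle. Lipase H (Liph) releases lysophosphatidic acid (LPA) from phosphatidic acid at the surface of follicle cells, and LPA receptor 6 (Lpar6) binds it; loss of either causes woolly, sparse hair in people. The protease ADAM17 frees ligands of the EGF receptor from the membrane, and iRhom2 (Rhbdf2) carries ADAM17 to the cell surface; mice lacking Adam17 function or EGF receptor signalling have wavy coats. Hairless (Hr) is a nuclear corepressor that binds the vitamin D receptor, Sgk3 is a kinase downstream of PI3 kinase, and Plcd1 is a phospholipase C that acts in hair formation below the transcription factor FOXN1. Padi3 is a peptidylarginine deiminase that converts arginines of trichohyalin, a protein of the inner root sheath, to citrulline, and its loss causes uncombable hair.

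The libraries held 7009237 to 9256459 counts. Knockout mouse 2 and control mouse 6 had counts for 14379 and 14179 genes, against 12302 to 13139 in the other libraries. Lpar6, Frmd8, Padi4, Edar and Fgf5, given below, had counts only in these mice. Why more genes were detected there was not tested. Tuft1 itself was at 19.9, 29.1 and 17.2 CPM in knockouts 2, 3 and 4, and at 106, 104, 55.6 and 114 CPM in controls 5, 6, 7 and 8, without overlap. Its log2 fold change was -2.10 (SE 0.39, edgeR adjusted p = 0.172). DESeq2 called it, and edgeR and limma-voom did not. Tags of Tuft1 thus remained in each knockout mouse, and the protein was not measured in these data. Markers of the labelled tissue were present in every library: the 8 basal keratinocyte genes listed summed to 8290 to 11828 CPM for knockouts and 7661 to 10475 CPM for controls. Knockout mouse 2 stood apart in hair genes. All 7 inner root sheath keratins examined (Krt25, Krt26, Krt27, Krt28, Krt71, Krt72 and Krt73) had counts there, 3044 in all, and each had 0 counts in the other 6 libraries. Fat cell markers summed to 3003 to 5465 CPM for knockouts and 7961 to 13805 CPM for controls. All 10 had log2 fold changes below 0, of which edgeR called 0 (8 had an unadjusted p below 0.05). DESeq2 and limma-voom each called the same 6 (Adipoq, Lep, Cfd, Plin1, Fabp4 and Lpl), beside 98 and 22 of all 12888 genes tested. In whole skin, fewer cells of a type and less RNA per cell cannot be told apart.

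No change in a hair disease gene passed the test in Tuft1 knockout skin. Of the 8 genes, 6 had enough counts to be fitted, and 0 of these 6 were called by edgeR's quasi-likelihood test at an adjusted p below 0.05, where 0.0233% of all 12888 genes tested were called (3 genes, 2 of them higher, 0.0155%, and 1 lower, 0.00776%). None of the 6 had an unadjusted p below 0.05, against 4.31% of all genes. DESeq2 and limma-voom also called 0 of the 6, and 98 and 22 of all 12888 genes tested. Hr, Plcd1, Liph and Sgk3 had log2 fold changes above 0 and Adam17 and Rhbdf2 below 0, with a median of 0.11 beside -0.01 over all genes tested. The groups overlapped for each of the 6, while they were separate for 6.89% of all genes. Padi3 had 0 counts in all 7 libraries and Lpar6 had 23 counts, all in 1 control mouse.

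**Figure D1:**
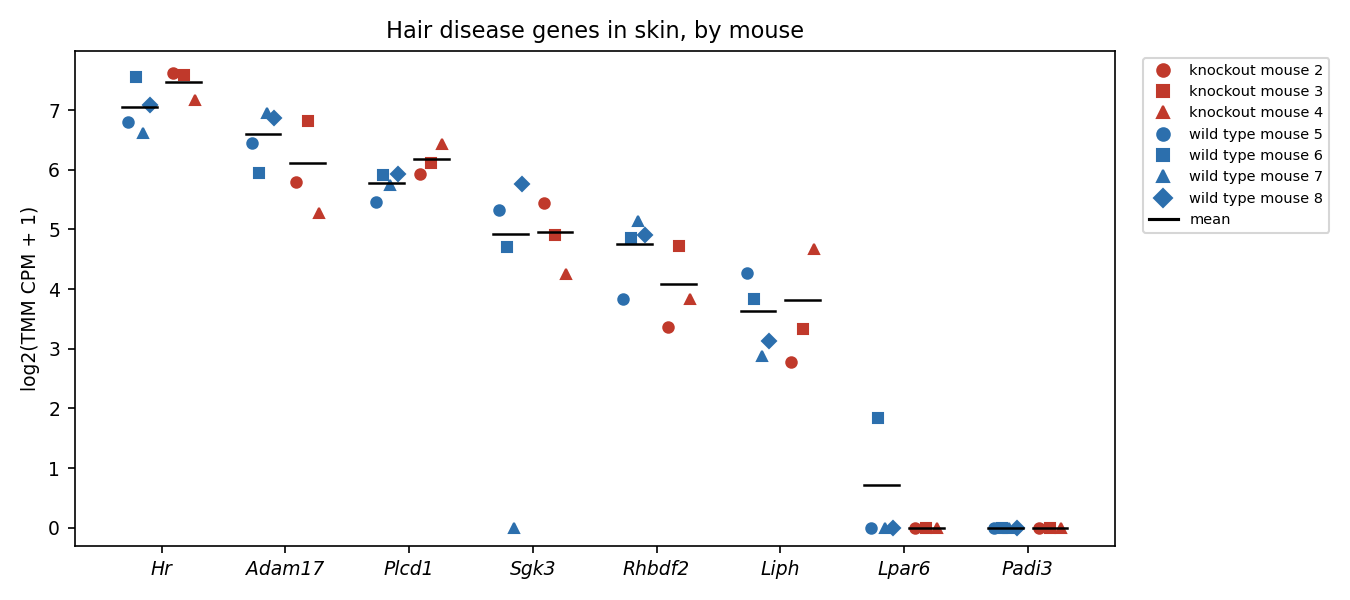
Level of the 8 genes in each mouse as log2(CPM + 1), with wild-type mice in blue, knockout mice in red and group means as black lines. Genes run from Hr, at 97.0 to 195 CPM, to Padi3, at 0 in all 7 mice, and red and blue points overlap for each fitted gene.

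**Figure D2:**
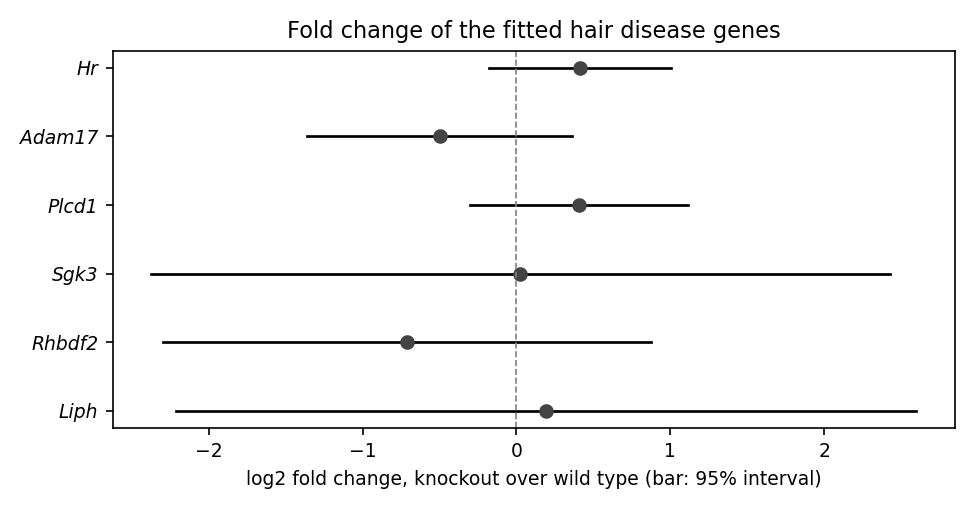
Log2 fold change of the 6 fitted genes, knockout over wild type, with 95% intervals from the quasi-likelihood fit. Every interval includes 0, from the narrow one of Hr (-0.18 to 1.01) to the widest, that of Liph (-2.22 to 2.60).

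Promoters are shown for the most abundant gene with a matched sequence, Adam17, and for the 2 genes too low to test, to set detection beside sequence. RefSeq promoters (250 bases before to 50 after the start, GRCm38.p6) were matched by symbol for 5 of the 8 genes, with Hr, Sgk3 and Rhbdf2 not matched. They are written 5′ to 3′ along the gene, with CG dinucleotides in capitals. Adam17 lies at chr12:21373583-21373882 on the minus strand, Lpar6 at chr14:73237641-73237940 on the plus strand and Padi3 at chr4:140810599-140810898 on the minus strand.
Adam17: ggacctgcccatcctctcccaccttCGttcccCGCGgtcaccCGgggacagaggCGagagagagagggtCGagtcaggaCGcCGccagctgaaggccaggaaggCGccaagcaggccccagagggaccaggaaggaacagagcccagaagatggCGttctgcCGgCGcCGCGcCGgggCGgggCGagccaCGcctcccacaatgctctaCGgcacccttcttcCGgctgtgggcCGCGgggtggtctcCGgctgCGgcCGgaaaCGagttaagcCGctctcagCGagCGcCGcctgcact
Lpar6: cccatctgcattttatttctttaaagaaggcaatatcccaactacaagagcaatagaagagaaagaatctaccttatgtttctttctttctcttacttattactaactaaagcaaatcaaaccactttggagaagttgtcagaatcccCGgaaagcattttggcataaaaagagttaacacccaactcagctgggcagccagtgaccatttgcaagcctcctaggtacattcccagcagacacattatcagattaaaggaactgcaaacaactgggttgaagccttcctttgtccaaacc
Padi3: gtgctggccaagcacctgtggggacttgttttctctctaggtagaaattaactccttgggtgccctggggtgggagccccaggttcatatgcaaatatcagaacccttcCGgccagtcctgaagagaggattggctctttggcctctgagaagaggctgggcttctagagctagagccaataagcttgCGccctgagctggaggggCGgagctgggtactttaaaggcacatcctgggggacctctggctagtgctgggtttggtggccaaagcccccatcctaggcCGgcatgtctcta
The Adam17 promoter holds 30 CG dinucleotides, a number reached by 11.7% of the 32851 promoters of this length in the table. The Lpar6 promoter holds 1, with 14.1% of promoters at that number or below, and the Padi3 promoter 4, beside a median of 7 over all promoters. Liph, the least abundant of the fitted genes, has 7 CG dinucleotides, and the 2 promoters of Plcd1 have 11 and 22. With 5 genes this is a description of these sequences only.

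Liph (ENSMUSG00000044626.14, minus strand of chromosome 16, 21772567 to 21814413, mm39) was the least abundant fitted gene. It stood at 5.82, 9.07 and 24.3 CPM in knockouts 2, 3 and 4, and at 18.3, 13.3, 6.38 and 7.80 CPM in controls 5, 6, 7 and 8. Knockout mice held both the lowest and the highest value. Group means were 13.1 ± 9.88 CPM (SD, n = 3) and 11.4 ± 5.46 CPM (SD, n = 4), with a log2 fold change of 0.19 (SE 1.11, 95% interval -2.22 to 2.60, edgeR adjusted p = 1.00). Without knockout mouse 4, the mouse with the highest level, the log2 fold change was -0.62 (SE 1.44) and the knockout mean was 7.30 CPM. A 4-fold difference in either direction lies inside the interval, so these libraries set only wide limits on a change of Liph.

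Lpar6 (ENSMUSG00000033446.8, plus strand of chromosome 14, 73475335 to 73480734, mm39) had 23 counts in control mouse 6 (2.59 CPM) and 0 counts in the other 6 libraries. At 3 counts, the most that a count of 0 allows, the level would be 0.323 to 0.395 CPM depending on the library, a limit for counting error only. With counts in 1 library only, the gene did not pass the filter of the main test. Without that filter edgeR gave an adjusted p = 0.602 and DESeq2 an adjusted p = 0.767. The fitted fold changes rest on 1 library with counts and are not given. Lpar6 lies within the bounds of the retinoblastoma gene Rb1 on the opposite strand, and 408 of its 5400 exon bases (7.6%) are shared with exons of Rb1. None of these lies in the last 500 exon bases of Lpar6, the end that 3' tags would come from. The sources used here do not say if counting used strand. Rb1 had 1410 counts, and its level was highest, at 59.1 CPM, in control mouse 6.

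Among the other genes that make, sense or remove LPA, 12 of 15 were tested and 0 were called by edgeR, with 9 log2 fold changes above 0 and a median of 0.13. Autotaxin (Enpp2), the secreted enzyme that makes most LPA in blood, was at 60.8, 64.9 and 30.0 CPM for knockouts and at 59.1, 85.1, 41.4 and 84.5 CPM for controls. It gave 74.0% of the summed CPM of Enpp2 and the lipases Liph, Pla1a and Lipi. Pla1a, a phospholipase that makes lysophosphatidylserine and is related to Liph, was at 9.75 to 12.7 CPM for knockouts and 0 to 16.6 CPM for controls, and the Liph relative Lipi had 0 counts. Of the receptors, Lpar1 was at 51.8 ± 18.8 CPM (knockouts, SD, n = 3) and 47.8 ± 12.2 CPM (controls, SD, n = 4) and made up 55.4% of receptor tags. Lpar3 was at 23.9 ± 14.5 and 21.5 ± 16.8 CPM, Lpar2 at 10.03 ± 9.50 and 7.55 ± 8.08 CPM and Lpar4 at 7.87 ± 8.65 and 8.79 ± 10.5 CPM, while Lpar5 had 0 counts. The 3 tested genes with the smallest p were Enpp2, Gna13 and Plpp3 (log2 fold changes -0.38, 0.35 and -0.24, SE 0.40, 0.38 and 0.32, edgeR adjusted p = 1.00 for each). Gna13 encodes a G protein through which LPA receptors act on RhoA, and Plpp3 a phosphatase that removes LPA. A second such phosphatase, Plpp1, had 0 counts in all 7 libraries.

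Adam17 (ENSMUSG00000052593.17, minus strand of chromosome 12, 21373510 to 21423633, mm39) was at 54.2, 112 and 37.6 CPM in knockouts 2, 3 and 4. In wild-type mice 5, 6, 7 and 8 it was at 86.2, 60.8, 122 and 115 CPM. Knockout mice 2 and 4 lay below all wild-type mice, and knockout mouse 3 lay above 2 of the 4 controls. Means were 67.9 ± 38.9 CPM (SD, n = 3) and 96.1 ± 28.2 CPM (SD, n = 4), with a log2 fold change of -0.50 (SE 0.40, 95% interval -1.36 to 0.36, edgeR adjusted p = 1.00). Without knockout mouse 3 the log2 fold change was -1.06, and it was -0.22 without knockout mouse 4, neither of them called. Of the last 500 exon bases of Adam17, 311 are shared with exons of Iah1 on the opposite strand. Iah1 had 258 counts beside 4969 for Adam17, and reads from the shared bases cannot be told apart unless strand was used.

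Rhbdf2 (ENSMUSG00000020806.16, minus strand of chromosome 11, 116488991 to 116517845, mm39) had a similar order of mice. It stood at 9.32, 25.3 and 13.3 CPM in knockouts 2, 3 and 4, and at 13.2, 28.03, 34.1 and 29.1 CPM in controls 5, 6, 7 and 8. As for Adam17, knockout mouse 3 was the highest of its group and control mouse 7 the highest of all. The log2 CPM of the 2 genes correlated with a Pearson's r of 0.68 over the 7 libraries, the highest of the 15 pairs of fitted genes, a description over libraries that include both genotypes. The log2 fold change of Rhbdf2 was -0.71 (SE 0.73, 95% interval -2.29 to 0.88, edgeR adjusted p = 1.00), with means of 15.97 ± 8.33 CPM (SD, n = 3) and 26.1 ± 8.99 CPM (SD, n = 4). It was -1.21 without knockout mouse 3 and -0.44 without knockout mouse 2. The related Rhbdf1 (iRhom1), which can also carry ADAM17, gave 77.4% of the tags of the pair, at 79.5 ± 36.4 CPM for knockouts and 70.5 ± 22.1 CPM for controls.

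In the list of ADAM17 partners, EGF receptors and their ligands, 13 of 14 genes were tested and 0 were called by edgeR, with 10 log2 fold changes below 0 and a median of -0.39. Adam10, a related protease that frees other EGF receptor ligands, was at 9.06, 17.0 and 25.6 CPM for knockouts and 28.1, 47.0, 34.7 and 59.2 CPM for controls. The groups did not overlap for Adam10, as for 3.45% of all genes in that direction. Its log2 fold change was -1.29 (SE 0.58, edgeR adjusted p = 1.00). Areg, which encodes the ADAM17 substrate amphiregulin, had 0 counts in the 3 knockouts and in control mouse 8, and was at 32.1, 7.77 and 39.3 CPM in controls 5, 6 and 7 (edgeR adjusted p = 0.729). Erbb3, a receptor of the family, was at 19.9 ± 8.64 CPM for knockouts and 42.5 ± 16.6 CPM for controls (log2 fold change -1.10, SE 0.56, edgeR adjusted p = 1.00). Egfr itself varied little, at 107, 132 and 115 CPM against 109, 95.1, 110 and 102 CPM.

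The 7 ligand genes summed to 150.4, 220.1 and 39.2 CPM in knockouts 2, 3 and 4 and to 234, 180, 269 and 98.5 CPM in controls 5, 6, 7 and 8. The lowest sums thus came from 1 mouse of each genotype, and both mice had low Epgn, at 4.60 CPM in knockout mouse 4 and 0.743 CPM in control mouse 8 against 38.7 to 110 CPM elsewhere. Tgfa, the ligand whose loss gives wavy hair, was at 0 to 9.32 CPM for knockouts and 0 to 16.7 CPM for controls. Hbegf was at 21.0 ± 17.6 and 35.7 ± 10.4 CPM, Ereg at 22.1 ± 24.95 and 34.2 ± 13.5 CPM, Btc at 30.4 ± 12.6 and 33.5 ± 19.97 CPM and Egf at 14.98 ± 18.6 and 7.94 ± 8.18 CPM. The ADAM17 inhibitor Timp3 was at 0 to 13.8 CPM for knockouts and 0 to 19.1 CPM for controls. Frmd8, which stabilises iRhoms, had counts only in knockout mouse 2 (7.38 CPM) and control mouse 6 (0.113 CPM) and was not tested. Immediate early genes, a marker list of tissue handling and stimulation, had 13 of 13 members below 0, of which edgeR called 0 (9 had an unadjusted p below 0.05), DESeq2 called 2 (Egr1 and Btg2) and limma-voom called 1 (Dusp1). Over all 12888 genes tested, DESeq2 called 98 and limma-voom 22. The immediate early genes summed to 1484 to 1681 CPM for knockouts and 1745 to 5970 CPM for controls. Their part in the values of Areg and Hbegf was not tested.

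**Figure D3:**
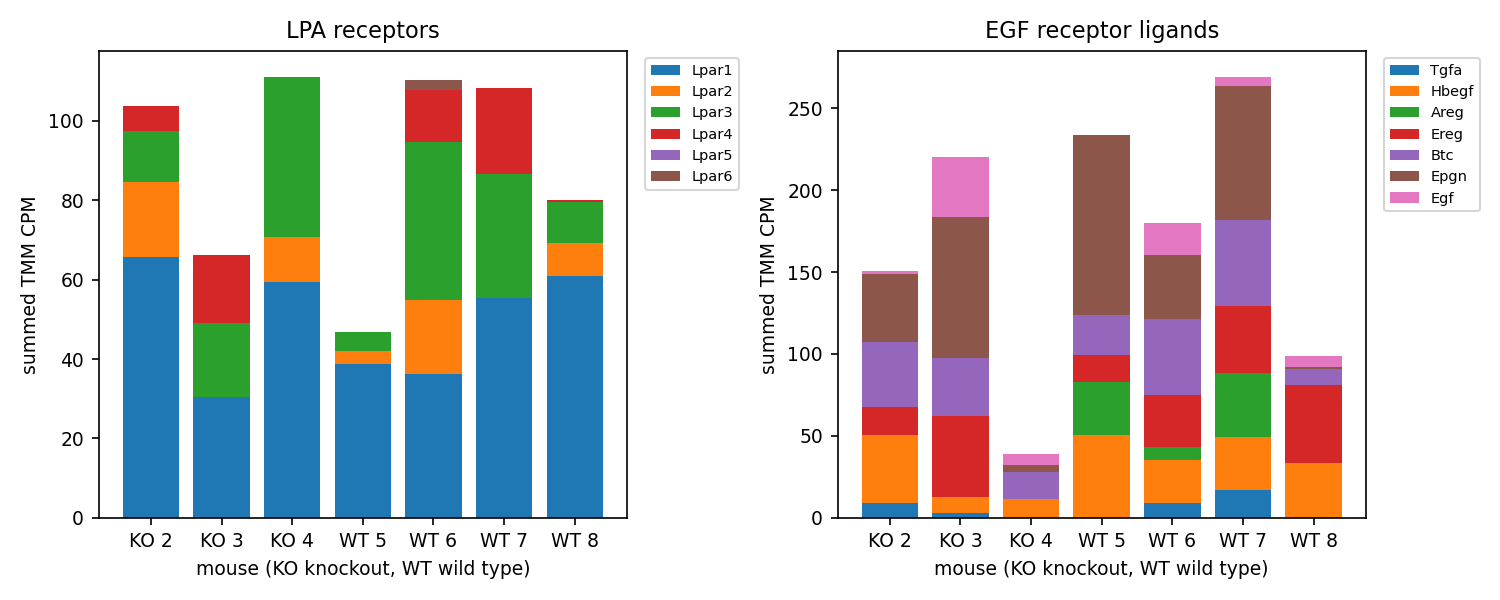
Summed CPM of the 6 LPA receptors (left) and the 7 EGF receptor ligands (right) in each mouse, stacked by gene. Lpar1 is the base of every receptor bar and Lpar6 shows only in control mouse 6, while ligand sums are lowest in knockout mouse 4 (39.2 CPM) and control mouse 8 (98.5 CPM).

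Hr (ENSMUSG00000022096.15, plus strand of chromosome 14, 70789652 to 70810988, mm39) was the most abundant of the 8 genes by 3' tags. It stood at 195, 192 and 142 CPM in knockouts 2, 3 and 4, and at 111, 187, 97.0 and 134 CPM in controls 5, 6, 7 and 8. Every knockout mouse lay above 3 of the 4 wild-type mice, and control mouse 6 lay inside the knockout range. Means were 176 ± 29.5 CPM (SD, n = 3) and 132 ± 39.7 CPM (SD, n = 4), with a log2 fold change of 0.41 (SE 0.27, 95% interval -0.18 to 1.01, edgeR adjusted p = 1.00). The lower end of the interval excludes a fall of 2-fold, which no other fitted gene except Plcd1 did.

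Among the 15 receptors and partners of hairless, all tested, 0 were called by edgeR, 9 had log2 fold changes above 0 and the median was 0.17. Vdr, the vitamin D receptor that hairless binds and whose loss gives a similar alopecia, was at 68.3, 86.8 and 120 CPM for knockouts and at 20.2, 32.3, 35.3 and 43.8 CPM for controls. Each knockout mouse lay above each control mouse, as for 3.44% of all genes in that direction. The log2 fold change of 1.48 (SE 0.38) had an adjusted p = 0.519 in edgeR, 0.288 in limma-voom and 0.0150 in DESeq2, so that DESeq2 alone called it. With 1 mouse left out the log2 fold change ran from 1.23 to 1.65. Sostdc1, a secreted inhibitor that hairless represses in the follicle, was at 24.98, 79.2 and 62.5 CPM for knockouts and 13.2, 10.2, 13.7 and 37.7 CPM for controls (log2 fold change 1.57, SE 0.61, edgeR adjusted p = 1.00). The third gene by p was Ncor1, a corepressor, at 504 ± 145 and 436 ± 22.0 CPM (edgeR adjusted p = 1.00).

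Markers of the outer root sheath and follicle stem cells lay in the same direction. All 8 tested had log2 fold changes above 0, with a median of 0.69. Of these, edgeR called 0 (4 had an unadjusted p below 0.05), DESeq2 called 1 (Lhx2) and limma-voom called 2 (Sox9 and Lhx2). Among all 12888 genes tested, DESeq2 called 98 and limma-voom 22. The summed level of the 8 markers was 1654 to 2316 CPM for knockouts and 1120.5 to 1443 CPM for controls. Sebaceous gland markers had 8 of 8 tested members above 0, of which edgeR and limma-voom called 0 (3 had an unadjusted p below 0.05 in edgeR) and DESeq2 called 1 (Krt79). They summed to 1452 to 3382 CPM and 1227 to 1918 CPM. None of the markers in either list had 0 counts in all libraries. Their part in the level of Hr, Vdr and Sostdc1 was not tested.

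**Figure D4:**
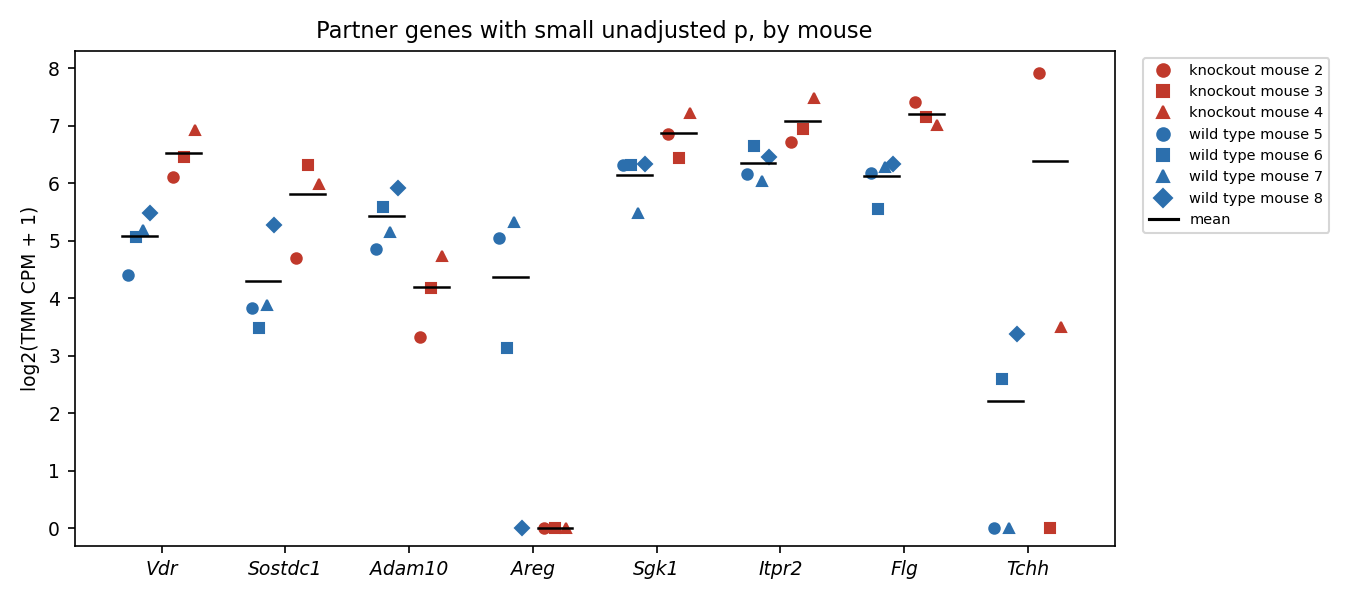
Level by mouse, as log2(CPM + 1), of 8 of the 9 partner genes with an unadjusted p below 0.05 (wild type blue, knockout red, means as black lines). Genes were picked by p, which favours groups that are apart. They are apart for Vdr, Adam10, Sgk1, Itpr2 and Flg, and for 6.89% of all genes. Knockout mouse 2 alone is high for Tchh (239 CPM), and none was called by edgeR.

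Sgk3 (ENSMUSG00000025915.15, plus strand of chromosome 1, 9868332 to 9971070, mm39) was at 42.6, 28.9 and 18.2 CPM in knockouts 2, 3 and 4, and at 39.2, 25.2 and 53.0 CPM in controls 5, 6 and 8. Control mouse 7 had 0 counts, the only library without Sgk3. Of 1652 other tested genes with a mean level within 1.25-fold of Sgk3, 6.90% had 0 counts in at least 1 library. With that mouse the log2 fold change was 0.03 (SE 1.11, 95% interval -2.37 to 2.43, edgeR adjusted p = 1.00), and without it -0.39 (SE 0.55). In limma-voom, where a log value is taken of each library, it was 1.77 (adjusted p = 0.788). The sign of a Sgk3 difference thus depended on single libraries, since it also turned when knockout mouse 2 or control mouse 6 was dropped.

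The related kinase Sgk1, a target of glucocorticoids and mineralocorticoids, gave 75.3% of SGK tags and was at 116, 85.7 and 149 CPM for knockouts and 78.4, 78.6, 43.8 and 79.3 CPM for controls. The groups did not overlap, as for 3.44% of all genes in that direction (log2 fold change 0.74, SE 0.32, edgeR adjusted p = 1.00). Sgk2 had 0 counts in all 7 libraries. Of the 16 genes of PI3 kinase, SGK and AKT signalling, 15 were tested and 0 called by edgeR, with 9 log2 fold changes below 0 and a median of -0.21. The genes with the smallest p after Sgk1 were Pik3cb, a catalytic subunit of PI3 kinase, and Nedd4l, a ubiquitin ligase that SGK kinases phosphorylate. Pik3cb was at 42.6 ± 1.71 CPM for knockouts and 63.8 ± 10.3 CPM for controls without overlap, and Nedd4l at 75.1 ± 30.8 and 50.3 ± 32.4 CPM (edgeR adjusted p = 1.00 for both). In the direction of Pik3cb, groups were apart for 3.45% of all genes.

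Plcd1 (ENSMUSG00000010660.4, minus strand of chromosome 9, 118900595 to 118922570, mm39) was the steadiest of the 6 fitted genes. It stood at 59.9, 68.3 and 85.1 CPM in knockouts 2, 3 and 4, and at 42.9, 59.2, 52.5 and 60.0 CPM in controls 5, 6, 7 and 8. The groups met at knockout mouse 2 and control mouse 8, which differed by less than the spread within either group. Means were 71.1 ± 12.8 CPM (SD, n = 3) and 53.7 ± 7.94 CPM (SD, n = 4), with a log2 fold change of 0.41 (SE 0.33, 95% interval -0.30 to 1.11, edgeR adjusted p = 1.00). The log2 fold change was 0.25 without knockout mouse 4. Its coefficient of variation over the 7 mice was 21.5%, and 92.4% of 1252 genes at a level within 1.25-fold varied more.

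The related Plcd3 was at 14.5, 38.0 and 44.3 CPM for knockouts and 21.2, 24.3, 35.5 and 0 CPM for controls, and Plcd4 had counts in knockouts 3 and 4 and control mouse 8 only. Foxn1, the transcription factor lost in nude mice and placed above Plcd1, had counts in 3 libraries, at 13.5 CPM in knockout mouse 4 and 5.92 and 6.75 CPM in controls 5 and 6. All 17 genes of this list were tested and 0 called by edgeR, with 12 log2 fold changes above 0 and a median of 0.51. Itpr2, a receptor for the inositol phosphate that phospholipase C releases, was at 105, 122 and 179 CPM for knockouts and 70.8, 99.7, 64.7 and 87.0 CPM for controls, without overlap (log2 fold change 0.74, SE 0.29, edgeR adjusted p = 1.00). Its relative Itpr3 was apart in the other direction, at 141 ± 17.0 and 189 ± 8.45 CPM (log2 fold change -0.42, SE 0.22, edgeR adjusted p = 1.00). Groups were apart for 3.44% of all genes in the direction of Itpr2 and for 3.45% in that of Itpr3. Nfatc1, a factor of follicle stem cells and also one of the outer root sheath markers above, was at 93.4 ± 14.2 and 54.0 ± 22.5 CPM (edgeR adjusted p = 1.00).

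Padi3 (ENSMUSG00000025328.10, minus strand of chromosome 4, 140512676 to 140537959, mm39) had 0 counts in every library. For counting error only, this allows up to 0.323 to 0.395 CPM. Knockout mouse 2, the library with 3044 counts of inner root sheath keratins, was among them. No exon of Padi3 overlaps an exon of another gene in the table. Of the other peptidylarginine deiminases, Padi2 gave 84.5% of the tags and was at 7.25, 7.50 and 0 CPM for knockouts and 21.1, 11.6, 0.491 and 22.9 CPM for controls. Padi1 had counts in knockouts 2 and 3 only (1.16 and 7.84 CPM), Padi4 in knockout mouse 2 only (4.01 CPM), and Padi6 in none.

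Among the partners of Padi3 in hardening the inner root sheath and hair, Tchh was high in knockout mouse 2 alone. Tchh, which encodes trichohyalin, was at 239 CPM in knockout mouse 2 and at 0 to 10.3 CPM in the other 6 mice. The fitted difference was 4.52 on the log2 scale (SE 1.79, edgeR adjusted p = 1.00), and 0.50 without that mouse. Tgm3, a transglutaminase that cross-links trichohyalin, was at 9.19, 3.92 and 5.13 CPM for knockouts and 13.6, 6.19, 24.1 and 24.0 CPM for controls. Flg, which encodes filaggrin, an epidermal deiminase substrate, was at 169, 141 and 128 CPM for knockouts and 71.4, 46.1, 77.0 and 79.5 CPM for controls. The groups were apart, as for 3.44% of all genes in that direction. The log2 fold change of 1.09 (SE 0.28) had an adjusted p = 0.519 in edgeR, 0.288 in limma-voom and 0.0177 in DESeq2. Suprabasal keratinocyte markers had 3 of 8 tested above 0, while 49.5% of all genes tested were above 0. Their summed level, which follows the most abundant genes, was 8325 to 11055 CPM for knockouts and 12102 to 15506 CPM for controls. None of the 8 was called by edgeR, DESeq2 or limma-voom, and 2 had an unadjusted p below 0.05 in edgeR. Groups were apart, lower in knockouts, for 2 of the 8 (25%), against 3.45% of all genes. Of the 12 genes of this list 8 were tested and 0 called by edgeR, with 5 above 0 and a median of 1.04. The third gene by p was Tgm5, a transglutaminase of the cornified layer, at 36.5 ± 14.2 and 18.4 ± 7.33 CPM (edgeR adjusted p = 1.00).

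Ordered by mean CPM over the 7 mice, the 8 genes ran from Hr (151 ± 40.4 CPM, SD, n = 7) through Adam17 (84.0 ± 33.6 CPM), Plcd1 (61.1 ± 13.2 CPM), Sgk3 (29.6 ± 17.5 CPM), Rhbdf2 (21.8 ± 9.64 CPM) and Liph (12.1 ± 6.94 CPM) to Lpar6 and Padi3. Plcd1 exceeded Sgk3 in 7 of 7 mice, and Liph exceeded Lpar6 in 7 of 7. The other neighbours did not keep their order in every mouse: Hr exceeded Adam17 in 6 of 7 mice, and Adam17 exceeded Plcd1, Sgk3 exceeded Rhbdf2 and Rhbdf2 exceeded Liph in 5 of 7 each. These are orders of 3' tags, which also depend on how well each 3' end is primed and annotated.

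Precision was higher for the most abundant gene than for the least. The standard error of the log2 fold change was 0.27 for Hr and 1.11 for Liph, and genes within 1.25-fold of their levels had median standard errors of 0.28 and 1.42. Sgk3, with its library at 0, had a standard error of 1.11 beside a median of 0.65 at its level. Of the tested genes within 1.25-fold of the level of Liph, 53.5% had 0 counts in at least 1 library, while Liph had counts in all 7. Adam17 varied more than most genes at its level, with a coefficient of variation of 40.0% against a median of 31.8%, and 23.0% of those genes varied more.

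The genes most like each member in pattern were found among 4426 or 4427 named genes with an average log2 CPM of at least 5. The measure was Pearson's r of log2 CPM over the 7 libraries, which differ in depth and include both genotypes. The best of so many genes will be high for any member. For Hr these were Ing1 (r = 0.97), P2rx4 (0.94) and Rab7b (0.93), and for Plcd1 they were Arl3 (0.97), Sike1 (0.97) and Ctnnd1 (0.96), which encodes p120-catenin of adherens junctions. Adam17 was closest to Inpp5b (0.98), Pofut2 (0.97) and Gnaq (0.97). Rhbdf2 was closest to Cystm1 (0.96), Aloxe3 (0.95), an epidermal lipoxygenase, and Med14 (0.93). The values were 0.98, 0.95 and 0.95 for Sgk3 with Ddx24, Sdhb and Nifk, and 0.98, 0.98 and 0.97 for Liph with Itfg1, Rn18s-rs5 and Usp48.

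Over the 7 pathway lists together, 95 genes were tested and 0 were called by edgeR or limma-voom, while DESeq2 called 2, Vdr and Flg. Of all 12888 genes tested, edgeR called 3, limma-voom 22 and DESeq2 98. An unadjusted p below 0.05 was found for 9 of the 95 (9.47%, against 4.31% of all genes). The lists were chosen with earlier results of these data known, so these shares are not a test of the lists. The groups did not overlap for 8 of the 95 (8.42%, against 6.89% of all genes), 5 higher in knockout skin (Vdr, Sgk1, Itpr2, Hoxc13 and Flg) and 3 lower (Adam10, Pik3cb and Itpr3). Hoxc13, a hair shaft transcription factor, was at 31.6, 19.6 and 9.34 CPM for knockouts and 7.11, 0, 1.35 and 7.18 CPM for controls (edgeR adjusted p = 1.00).

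**Figure D5:**
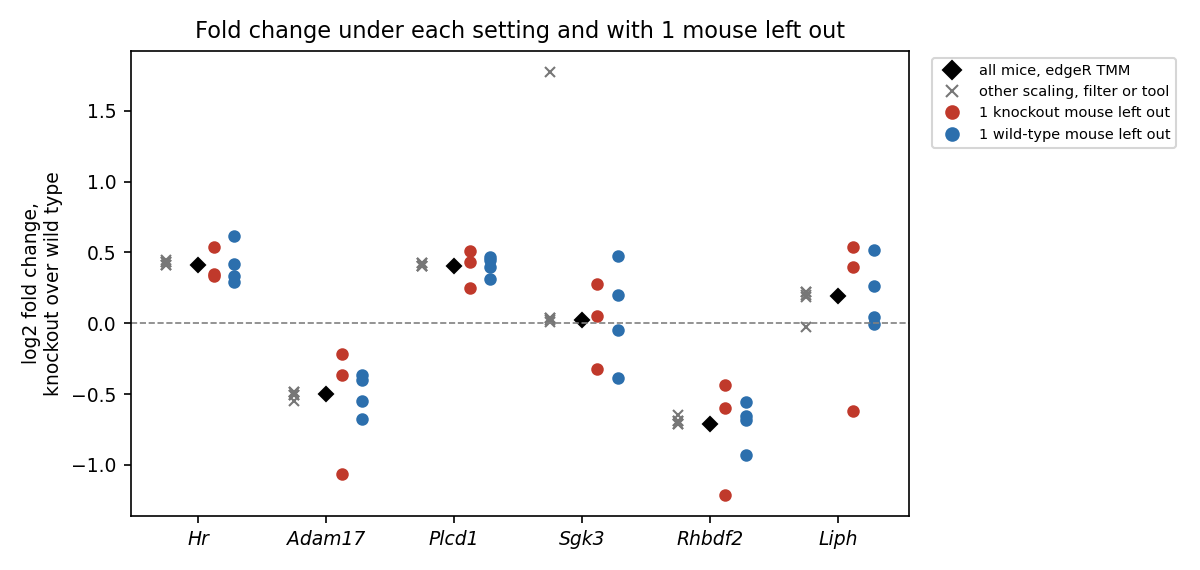
Log2 fold change of the 6 fitted genes under each processing setting (crosses), with 1 mouse left out (circles) and as reported (diamonds). Hr and Plcd1 stay above 0 and Adam17 and Rhbdf2 below 0 in all 12 alternatives, while Liph and Sgk3 fall on both sides.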

How the data were processed

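RNA of whole skin was measured in 3 Tuft1 knockout and 4 wild-type mice with 3' libraries (QuantSeq), grouped by the genotype in the labels. The table deposited by the authors gives unnormalized counts for 56691 genes. Per the submitters' processing notes, STAR, GATK 4.2.4.0, featureCounts, Subread 2.0.3, edgeR 3.36.0 and the mm39 build were used, in no stated order. A second table deposited by the authors holds log2 values for 12954 genes, among them 6 of the 8 members and not Lpar6 and Padi3. Its 90678 values could all be rebuilt (tolerance 1e-09) as log2 CPM in edgeR, scaled by TMM with prior count 2, and it served for this check alone.

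Genes that did not pass edgeR's default filter were removed, leaving 12888 of 19128 genes with any count. The filter asks for about 10 counts, scaled for library size, in at least 3 libraries, and for a minimum total. Groups were compared in edgeR 4.0.16 (R 4.3.3) with TMM factors and the quasi-likelihood F test, with Benjamini-Hochberg adjustment over all genes tested. Standard errors were derived from the F statistic. The common biological coefficient of variation was 108%. The procedure was tested on simulated data. Alternatives were DESeq2 1.42.0, limma-voom (limma 3.58.1), 2 other scalings, no filter, and each mouse left out. Totals of 7009237 to 9256459 counts put the limit of a count of 0 at 0.323 to 0.395 CPM, for counting error only.

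The members, lists and tests were chosen with earlier results of these data known. From each pathway list, called genes, up to 3 genes with the smallest p and a written list of relatives and direct partners of the members were named (among them the EGF receptor ligands, Timp3, Frmd8, Adam10, Vdr, Foxn1, Tchh and Tgm3), with any gene whose exons overlap a member. Egfr, Plpp1, Hoxc13, Cdsn, Edar, Fgf5 and the single marker genes fell outside this rule and were named after their values were seen. Promoters came from RefSeq tables of another build (GRCm38.p6), and no coordinates were converted.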

Additional observations from a re-analysis of the deposited data

Results flagged for a closer look

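Among 35 groups of 4 wild-type values examined, 4 had 1 animal well outside the other 3. For normally distributed values, about 1 in 20 such groups (1.75) would. That rate does not hold for low counts, because a gene with counts in 1 of the 4 mice, such as Lpar6 or Plcd4, is always flagged. The number flagged is therefore a description only. Lpar6 was at 2.59 CPM in control mouse 6 and 0 in the other 3. Plcd4 was at 10.8 CPM in control mouse 8 and 0 in the other 3. Sostdc1 was at 37.7 CPM in control mouse 8, against 10.2 to 13.7 CPM in the others. Sgk1 was at 43.8 CPM in control mouse 7, against 78.4 to 79.3 CPM in the others.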

How the results depend on the processing

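The 3 genes called over all genes became 76 without a filter on low counts, 101 with the DESeq2 Wald test and 22 with limma-voom, and 0 to 1 with any 1 mouse left out. Of the 101, 98 were among the 12888 genes that passed the filter. None of the 6 fitted hair genes was called under any of 12 alternatives. Hr (0.29 to 0.62), Plcd1 (0.25 to 0.51), Adam17 (-1.06 to -0.22) and Rhbdf2 (-1.21 to -0.44) kept their sign in all 12. Liph ran from -0.62 to 0.54 with 1 mouse left out, and turned to -0.029 with limma-voom, -0.62 without knockout mouse 4 and -0.0062 without control mouse 7. Sgk3 ran from -0.39 to 0.48 in the same refits, turning to -0.32 without knockout mouse 2, -0.049 without control 6 and -0.39 when control 7 was dropped. The cause was not tested. The knockout mean of Liph, 13.1 CPM, was 7.30 CPM without knockout mouse 4, and the wild-type mean of Lpar6, 0.647 CPM, was 0 without control 6. No paired analysis was possible because no mouse number occurs in both genotypes. Lpar6 was fitted only without the filter (adjusted p = 0.602) and in DESeq2 (adjusted p = 0.767), and Padi3, with 0 counts, in no setting.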

Other observations

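Other genes of sparse or altered hair were followed as a list of 19, of which 15 were tested and 0 called by edgeR, DESeq2 or limma-voom (0 had an unadjusted p below 0.05 in edgeR), 8 above 0 and 7 below, with a median log2 fold change of 0.07. Cdsn, which encodes corneodesmosin and is mutated in hypotrichosis of the scalp, was the steadiest, at 653, 604 and 547 CPM for knockouts and 656, 559, 706 and 559 CPM for controls (log2 fold change -0.04, SE 0.19, edgeR adjusted p = 1.00). The 3 with the smallest p were Snrpe, a spliceosome gene of hypotrichosis, Kank2, a gene of keratoderma with woolly hair, and Ltbp3, a binding protein of latent TGF-beta. Snrpe was at 33.4 ± 19.3 CPM (knockouts, SD, n = 3) and 57.2 ± 23.7 CPM (controls, SD, n = 4), Kank2 at 53.4 ± 21.4 and 32.9 ± 12.5 CPM, and Ltbp3 at 10.1 ± 16.2 and 2.31 ± 2.21 CPM, where knockout mouse 4 held 28.8 CPM. Edar, the ectodysplasin receptor, had counts only in knockout mouse 2 (2.98 CPM), and Fgf5, whose loss gives long hair, only in control mouse 6 (3.04 CPM).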
